A study of Mus musculus with 7 samples.

Results

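The genes of the cytosolic ribosome's proteins were taken from a table of read counts in muscularis macrophages, the resident macrophages of the gut wall's muscle layer. A gene was a member when its symbol was Rpl or Rps followed by a number with an optional letter a, x or y, or was Rplp0, Rplp1, Rplp2 or Rpsa, and when it carried no pseudogene suffix. The rule found 76 members among the 17209 genes of the table (0.442%), 46 of the large subunit and 30 of the small subunit, and it used no measured value. The libraries were made from C57BL6/J mice, from cells of the small intestine that were sorted for the green reporter of the chemokine receptor gene Cx3cr1 after the muscle layer had been peeled off. Sham is the group of 4 libraries from mice with a control operation. pMCAO, usually permanent middle cerebral artery occlusion, a surgical stroke model, is the group of 3 libraries, and both groups were taken 24 h after surgery. The labels give neither age nor sex, and the description of pMCAO 3 alone names a pool without saying what was pooled. Each library began with 2.0 ng of total RNA, and ribosomal RNA was removed before sequencing.

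A ribosome reads messenger RNA into protein, and it is built from a small subunit, which decodes the message, and a large subunit, which joins the amino acids. Each ribosomal protein is present about once per ribosome, apart from the acidic stalk proteins Rplp1 and Rplp2, and the genes of both subunits are usually expressed together at a high level. Their messages begin with a tract of pyrimidines (the 5′ TOP element) through which the kinase mTOR controls their translation. Mammalian genomes hold very many processed pseudogenes of these genes, intronless copies made from spliced messages, and a short read from a member can match such a copy as well as the gene itself.

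A gene and its copy are shown first, because reads of a member can match such copies. The pair is Rps25, a small subunit protein, and Rps25-ps1. Among 12 of the most counted pseudogene rows, taken with 1 chromosome left out, Rps25-ps1 has the most differences from its member. Each sequence is coding bases 1 to 60 of the member or the matching stretch of the copy, 5′ to 3′, from the GENCODE M21 transcripts of GRCm38, and capitals mark the bases at which the pair differs.
Rps25: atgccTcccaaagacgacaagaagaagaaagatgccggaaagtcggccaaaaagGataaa
Rps25-ps1: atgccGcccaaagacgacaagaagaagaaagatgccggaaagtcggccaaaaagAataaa
Rps25 and Rps25-ps1 differ at 4 of 378 coding bases, 2 of them in the stretch shown. Of the 12 pseudogene rows compared, 6 match the aligned coding bases of their member without a difference, so reads within the matching stretch cannot be told apart by their letters.

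The starts of the genes are shown for the 3 members that were lowest and the 3 that were highest in library pMCAO 3, among those with a single start in RefSeq. Each line is the 25 bases before and the 25 bases from the RefSeq start on GRCm38.p6, 5′ to 3′ on the gene's strand, with the letters CTTTC, a short pyrimidine run, in capitals.
Rpsa: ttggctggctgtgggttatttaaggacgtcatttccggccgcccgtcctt
Rps15: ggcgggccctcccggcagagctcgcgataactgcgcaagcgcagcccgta
Rpl35: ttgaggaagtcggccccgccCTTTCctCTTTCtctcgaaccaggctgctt
Rpl36a: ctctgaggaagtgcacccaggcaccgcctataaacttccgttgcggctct
Rpl15: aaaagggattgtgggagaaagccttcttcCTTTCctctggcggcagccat
Rpl24: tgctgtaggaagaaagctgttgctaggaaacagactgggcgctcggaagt
The windows are chr9:120127741-120127790 (plus strand) for Rpsa, chr10:80292406-80292455 (plus) for Rps15 and chr2:39005107-39005156 (minus) for Rpl35. They are chrX:134585629-134585678 (plus) for Rpl36a, chr14:18270962-18271011 (minus) for Rpl15 and chr16:55966250-55966299 (plus) for Rpl24. RefSeq starts were matched for 56 of the 76 members. CTTTC, searched on the gene's strand in this 50-base window, was present for 18 of the 56 (32.1%) and for 7.87% of all 27025 genes in the start table. TTCCGG, searched on both strands in the full window of 300 bases, was present for 31 of the 56 (55.4%) against 16.7% of all genes, and TATAAA in the 50 bases before the start on the gene's strand for 0 of 56 against 3.15%. The 18 members with CTTTC had a median log2 difference of -0.99 between pMCAO 3 and the sham mean, and the 38 without it -1.05, so the letters did not divide the members by their value in that library.

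Total counts were 12685941 to 34432716 per library. A count of 3 corresponds to 0.0825 CPM (the count scaled to library size with TMM factors) in the deepest and 0.256 CPM in the shallowest library. Of 12 macrophage markers all 12 were measured, and their summed level was 10335 to 14129 CPM in sham and 8645 to 9949 CPM in pMCAO. Of 8 fibroblast markers 7 were measured, with a sum of 52.9 to 163 CPM in sham and 104 to 532 CPM in pMCAO, the highest value in pMCAO 3, and all 7 endothelial markers summed to 84.6 to 223 CPM and 261 to 347 CPM. Of 5 markers of large peritoneal macrophages 4 were measured, Gata6 not among them, and summed to 13.96 to 34.2 CPM in sham and 37.5 to 96.5 CPM in pMCAO. The macrophage, endothelial and large peritoneal macrophage sums did not overlap between the groups. Single macrophage markers differed: C1qb had means of 3125 CPM in sham and 1646 CPM in pMCAO, and Mertk alone was higher, with 354 and 516 CPM. Ptprc and Cd14 changed little (log2 differences -0.02 and -0.10). The smallest edgeR adjusted p of the 12 was 0.0952, for C1qa. Of the peritoneal markers Icam2 alone was lower in pMCAO (-0.32). Mitochondrial ribosomal RNA took 2.42 to 5.82% of sham counts and 8.26 to 12.6% of pMCAO counts. The part of these differences in the results on ribosomal proteins was not tested, and in sorted bulk cells fewer cells of a type and less RNA per cell cannot be told apart.

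In sham libraries the members were abundant, but their counts ran over a wide range. Per kb of exon the median member had 33.9 CPM, 25.1 for the large and 50.4 for the small subunit, against 4.29 for the 17127 annotated genes, and 72 of 76 members lay above that median. Without correction for length, 32 members had a mean of at least 100 CPM and 7 a mean under 10 CPM. Rpl4, a large subunit protein at the exit tunnel, had the highest level, with 829, 865, 704 and 736 CPM in Sham 1 to 4. Rpl23a, which sits at the end of that tunnel, had the lowest, with 1.75, 2.37, 1.46 and 1.84 CPM. The means of these genes were 784 ± 75.8 and 1.85 ± 0.38 CPM (SD, n = 4). Per kb of main transcript the lowest was again Rpl23a, with 3.31 CPM, and the highest Rpl32, with 1267 CPM, a ratio of 383.

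Per kb of exon the order was led by Rplp1 (857 CPM per kb), a stalk protein that helps recruit elongation factors, and Rpl32 (680.3). Rps15 (415), a small subunit protein of the decoding region, and Rpl4 (391) came next. Rps4x (324), the X-linked copy of Rps4, was also high. Rps15, Rpl4 and Rps4x overlapped with each other over the sham libraries on this scale, as Rplp1 did with Rpl32. Rpl41, whose product is a very short basic peptide, had 293 CPM per kb. At the other end were Rpl27 (1.90), Rpl23a (2.19) and Rpl28 (3.46), all of the large subunit, and in the small subunit Rps13 (7.97), Rps27a (8.27) and Rps12 (9.06). Rps27a is made as a fusion with ubiquitin.

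Between pMCAO and sham no member passed the adjusted threshold of 0.05 in edgeR's quasi-likelihood test with Benjamini-Hochberg adjustment over all 17209 genes, in which 0.0988% of genes passed. At an unadjusted p under 0.05, 8 members were lower in pMCAO and 0 higher, against 6.47% and 6.97% of all genes. Of these 8, 3 belong to the large and 5 to the small subunit. DESeq2 also called 0 members after adjustment, where 476 of the 17209 genes passed. Its unadjusted p was under 0.05 for 9 of 76 members, a smaller share than the 15.1% of all genes in that fit. The limma-voom fit called 0 members after adjustment, where 39 of the 17209 genes passed. Its unadjusted p was under 0.05 for 15 of 76 members, against 14.8% of all genes. The log2 difference was negative for 70 of 76 members, 40 of 46 large and all 30 small, against 51.4% of all genes. Its median was -0.33 in the large and -0.32 in the small subunit (median standard error 0.28 in both), and -0.02 over all genes. Members share libraries and move together, so their number adds no replicates to the 4 against 3 libraries. The labels call the sham libraries biological replicates and the pMCAO libraries replicates, and the tests rest on the variation from library to library alone.

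The members with an unadjusted p under 0.05 included Rps21, Rplp1, Rpl18, Rps15, Rps14, Rpsa and Rpl7. Rps21 (ENSMUSG00000039001, chr2:180257377-180258445), a small subunit protein, had 149, 152, 128 and 132 CPM in Sham 1 to 4 and 100.4, 105 and 44.6 CPM in pMCAO 1 to 3. All 3 pMCAO libraries lay below all 4 sham libraries, and the log2 difference was -0.75 (SE 0.25, edgeR adjusted p = 0.225). Rpsa (ENSMUSG00000032518, chr9:120127689-120132369), a small subunit protein also known as the laminin receptor, had 152, 209.7, 176 and 211 CPM in sham and 143, 144 and 48.2 CPM in pMCAO. Its groups did not overlap either, and its log2 difference was -0.75 (SE 0.31, edgeR adjusted p = 0.315). These were the 2 members without overlap, both of the small subunit, whereas 6.58% of all genes had every pMCAO library below every sham library.

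Rps15 (ENSMUSG00000063457, chr10:80292453-80294114) had the most negative log2 difference of all members, -0.85 (SE 0.31, edgeR adjusted p = 0.268). It stood at 220.5, 303, 231 and 292 CPM in sham and at 133, 232 and 70.4 CPM in pMCAO, with pMCAO 2 inside the sham range. Without pMCAO 2 it was the single member that passed, at a log2 difference of -1.36 (edgeR adjusted p = 0.0402), where 0.581% of all genes passed. Rps14, a protein of the small subunit's platform, had 111, 147, 135 and 159.6 CPM against 98.5, 119.6 and 49.96 CPM, where pMCAO 2 lay within the sham values.

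In the large subunit, Rplp1 (ENSMUSG00000007892, chr9:61913284-61914542) had 306, 475, 399 and 531 CPM in sham and 311, 317 and 158 CPM in pMCAO. Its log2 difference was -0.70 (SE 0.25, edgeR adjusted p = 0.252), and both pMCAO 1 and pMCAO 2 were above the lowest sham library. The other stalk proteins were Rplp0, the base of the stalk, with 391 ± 49.9 CPM in sham (SD, n = 4) and 366, 424 and 119 CPM in pMCAO, and Rplp2, with 70.1 ± 11.99 CPM (SD, n = 4) and 54.4, 65.8 and 37.1 CPM. Their log2 differences were -0.37 and -0.42 (SE 0.33 and 0.23). All 3 stalk genes were lowest in pMCAO 3. Rpl18 (ENSMUSG00000059070, chr7:45715457-45720836) had 71.8, 106, 105 and 111 CPM against 61.2, 82.8 and 33.0 CPM, and Rpl7 382, 503, 304 and 359 CPM against 319, 319 and 144 CPM. Rpl18 overlapped between groups through Sham 1, the lowest sham library, and Rpl7 through Sham 3.

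**Figure D1:**
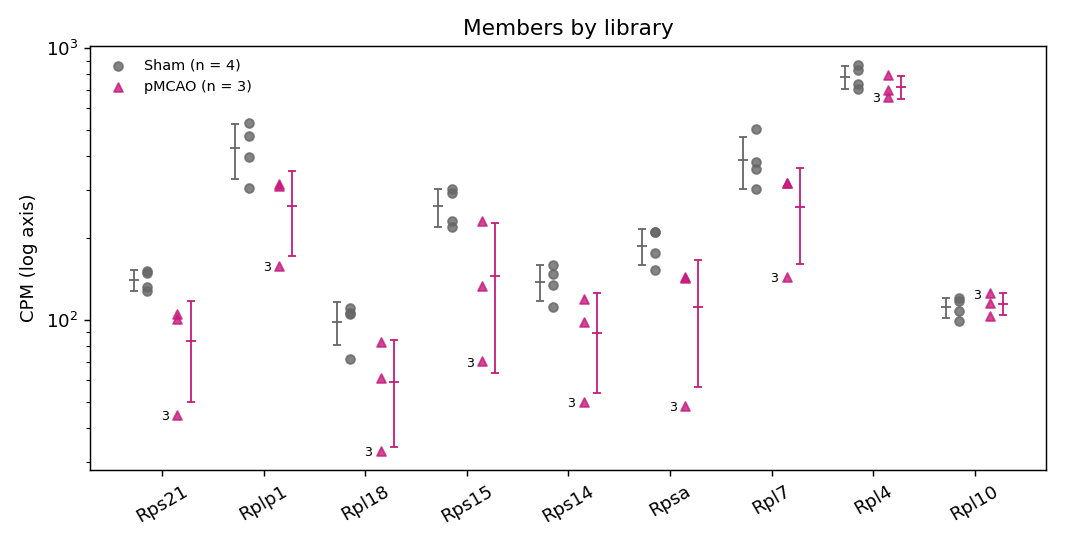
CPM (log axis) of 7 of the 8 members with the smallest p and of Rpl4 and Rpl10, with 4 sham libraries (circles) and 3 pMCAO libraries (triangles), each library a point, and the mean with SD beside them. The digit 3 marks pMCAO 3, which is the lowest point of every gene shown except Rpl10; without it Rps21 and Rpsa still lie below all sham libraries.

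Some members showed a weaker pattern or none on their own rows. Rpl10, an X-linked large subunit protein needed late in the subunit's maturation, had 108, 120.0, 98.9 and 117 CPM in sham and 115, 104 and 125 CPM in pMCAO. Its pMCAO 1 and pMCAO 2 lay within the sham range and pMCAO 3 just above it (log2 difference 0.04, SE 0.17). Rpl4 was at 701, 798 and 661 CPM in pMCAO, with pMCAO 2 inside its sham range (log2 difference -0.12, SE 0.16). Rps12 had 18.4 ± 1.29 CPM (SD, n = 4) in sham and 15.04, 18.6 and 16.1 CPM in pMCAO. Rps6, the small subunit protein phosphorylated by the S6 kinases downstream of mTOR, had 17.04, 19.5, 13.97 and 10.9 CPM against 21.3, 9.94 and 12.4 CPM, the highest and the lowest value both from pMCAO libraries. Rps27a had 15.8, 22.7, 11.3 and 15.5 CPM against 11.3, 22.2 and 10.9 CPM. Rpl17 had the most positive fitted difference (0.40, SE 0.42), from 4.72 to 10.8 CPM in sham and 18.8, 9.84 and 6.62 CPM in pMCAO, where only pMCAO 1 was above the sham range. For Rps12, Rps6, Rps27a and Rpl17, pseudogene copies held more sham counts than the gene. With the copies added, the log2 difference of pMCAO 3 from sham was -1.14 for Rps27a, -0.71 for Rpl17, -0.50 for Rps12 and -0.44 for Rps6. It was -0.24 for Rpl4, and the fitted difference of Rpl17 was then -0.11 (SE 0.27).

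Other members named by their role or level lay between these. Rpl22, a large subunit protein without which mice are viable, had 373 ± 83.6 CPM in sham (SD, n = 4) and 373, 326 and 169 CPM in pMCAO, and Rpl38, known for its part in translating Hox messages, 7.06 ± 1.36 CPM and 3.08, 6.69 and 2.41 CPM. Rps4x had 528 ± 74.3 CPM in sham (SD, n = 4) and 469.6, 493 and 209 CPM in pMCAO. Rpl41 had 343 ± 69.5 CPM (SD, n = 4) and 330.4, 296 and 129.8 CPM, and Rpl32 655 ± 141 CPM (SD, n = 4) and 654, 458 and 243 CPM. Rpl29 had 144, 186, 116 and 152 CPM in sham and 113, 143 and 49.0 CPM in pMCAO. In each of Rpl22, Rpl32, Rpl41 and Rps4x, pMCAO 1 lay within the sham range and pMCAO 3 under it.

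Most of the difference between the groups lay in library pMCAO 3. In it 64 of 76 members lay below all 4 sham libraries, 36 of 46 large and 28 of 30 small, where 29.0% of all genes did. In pMCAO 1 this held for 19 members (9 large, 10 small) against 26.6% of all genes, and in pMCAO 2 for 12 (5 large, 7 small) against 25.8%, shares at or under the background. The median log2 difference from the sham mean was -0.08 in pMCAO 1, -0.07 in pMCAO 2 and -1.08 in pMCAO 3, the last being 47.1% of the sham level. The sham libraries' own medians ran from -0.14 to 0.22, so pMCAO 1 and pMCAO 2 lay inside the sham range and pMCAO 3 far under it. Fitted without pMCAO 3, 52 of 76 members had a negative log2 difference. The members' median was -0.11, against -0.01 over all genes, and their smallest edgeR adjusted p was 0.382. In that fit 2 of 76 members had an unadjusted p under 0.05, a smaller share than the 10.7% of all genes.

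**Figure D2:**
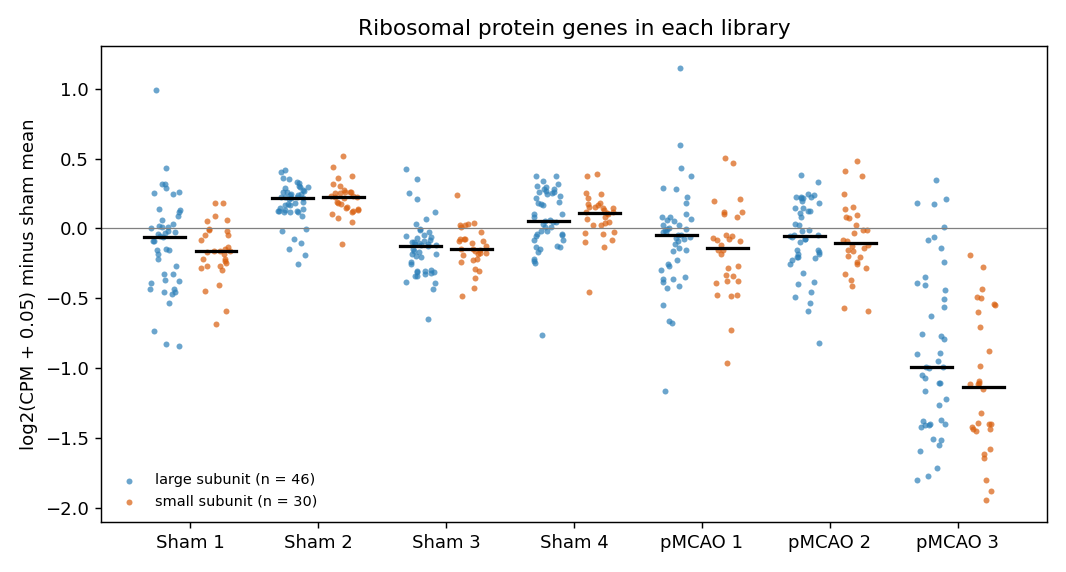
Each point is a member in a library, as log2(CPM + 0.05) minus the mean of the 4 sham libraries; blue marks the 46 large and orange the 30 small subunit members, and black bars are medians. The medians of pMCAO 3 are -0.99 for the large and -1.13 for the small subunit, under those of the other 6 libraries.

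Within pMCAO 3 the members were not uniform. Of the 76, 40 were more than 1 log2 unit below the sham mean, 18 were at or above -0.5, and 5 were above 0. Among the lowest were Rpsa (-1.95), Rps15 (-1.88), Rpl35 (-1.80), Rpl39 (-1.77) and Rplp0 (-1.71). The 5 above 0 were all of the large subunit, Rpl31 (0.01), Rpl10 (0.18), Rpl36a (0.18), Rpl15 (0.21) and Rpl24 (0.35). Rpl24, a large subunit protein at the contact with the small subunit, had 6.16, 7.40, 5.50 and 7.42 CPM and 6.84, 7.77 and 8.35 CPM, low in every library.

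Members with more counts on their own row lay lower in pMCAO 3. The 32 members with at least 100 CPM in sham had a median log2 difference of -1.40 there, the 44 under 100 CPM -0.73 and the 24 under 30 CPM -0.47. In the 40 members whose pseudogene rows held more sham CPM than the gene the median was -0.76, and in the other 36 it was -1.39. Whether the level or the place of the counts goes with the difference was not tested. Across the 76 members the correlation of the difference in pMCAO 3 with the log2 sham level was -0.55 (Pearson) and -0.58 (Spearman). With GC content it was -0.48 and -0.50, with log2 exon length 0.15 and 0.17. With the share of sham CPM on pseudogene rows it was 0.44 and 0.46. These describe genes of shared libraries. The 38 members above the members' median GC content of 52.0% had a median of -1.32 in pMCAO 3 and the other 38 -0.83, and in pMCAO 1 the medians were -0.25 and -0.0028. In pMCAO 2 GC content divided the members little, with medians of -0.08 and -0.05.

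Short genes outside the members were also low in pMCAO 3, and so, in a separate division, were genes of high GC content. Among 10109 other protein coding genes, the eighth with the shortest exon length (up to 2193 bases) had a median log2 difference of -0.72 there and the longest eighth 0.38, and the eighth with the highest GC content had -0.76 and the lowest 0.46, where all genes had 0.02. The members' median exon length was 1805.5 bases against 4861 for the others. Their median GC content was 52.0% against 49.2%, below the 56.4% at which the highest eighth began. Per-library offsets for GC content and exon length were used in an alternative fit. In it the median log2 difference between pMCAO and sham was -0.066 in the large and -0.21 in the small subunit. Over all members it was -0.13, with 58 of 76 negative, and over all genes -0.01. The 76 mitochondrial ribosomal protein genes, which build the separate ribosome of mitochondria, had a median of -0.78 in pMCAO 3, -0.02 in pMCAO 2 and -0.19 in pMCAO 1. Their median fitted difference was -0.31, with 0 past the adjusted threshold and 10 lower at an unadjusted p under 0.05, against 6.47% of all genes. Mrpl28 (-1.10, edgeR adjusted p = 0.146) and Mrps10 (-0.81, edgeR adjusted p = 0.192) had the smallest p.

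The members together took 0.995, 1.34, 1.08 and 1.28% of all counts in Sham 1 to 4 and 0.943, 1.01 and 0.481% in pMCAO 1 to 3. The mean was 1.17 ± 0.162% (SD, n = 4) in sham and 0.812 ± 0.289% (SD, n = 3) in pMCAO, where pMCAO 2 lay within the sham range. Without the mitochondrially encoded genes in the total, the share was 1.09 to 1.41% in sham and 1.12, 1.13 and 0.543% in pMCAO 1 to 3, so that pMCAO 1 also lay within the sham range and pMCAO 3 alone below it. The large to small subunit ratio of these counts was 1.12, 1.10, 1.09 and 1.09 in sham, 1.12 and 1.12 in pMCAO 1 and 2, and 1.34 in pMCAO 3. The spread over the sham libraries was small (SD 0.0157), pMCAO 1 and 2 lay within their values, and pMCAO 3 above them. Without Rpl4 and the most abundant small subunit gene the ratio was 1.07 to 1.09 in sham and 1.15 in pMCAO 3, a smaller gap than with those genes.

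**Figure D3:**
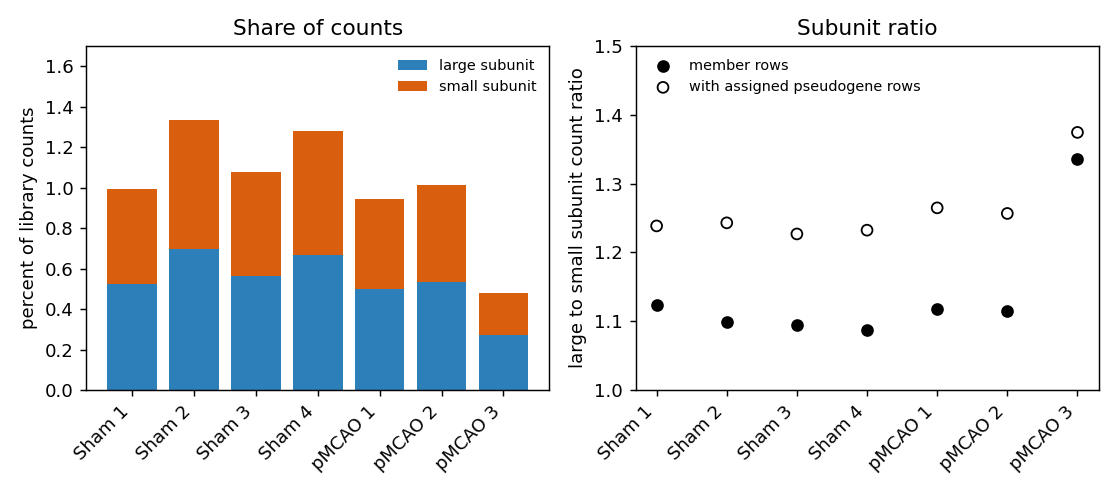
Left, percent of each library's counts on large (blue) and small (orange) subunit members, as stacked bars from 0. Right, the ratio of large to small subunit counts per library for member rows (filled) and for members with their pseudogene rows added (open), on an axis from 1; pMCAO 3 has the lowest share, 0.481%, and the highest ratio in both.

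Pseudogene rows held as many counts as the members. Of 1398 pseudogene rows in the table, 278 matched the coding sequence of a member over at least 50% of its length at 90% identity or more, and they belonged to 71 members, with a median identity of 98.4%. Their counts were 0.97 to 1.06 times those of the members in every library, or 1.03 to 1.40% of counts in sham and 0.977, 1.07 and 0.466% in pMCAO 1 to 3. In 40 members (27 large, 13 small) the pseudogene rows held more sham CPM than the gene, and in 16 they held over 90% of the sum. The 5 members without a match included Rpl8, Rplp2, Rps3 and Rps9. Only rows annotated or named as pseudogenes were assigned. Rps27rt, a ribosomal protein gene outside the name rule with a sham mean of 610 CPM, was therefore not added to Rps27 (27.1 CPM).

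The pseudogene row with the most counts, Gm14303, is identical to Rps29 over the coding sequence, the only part compared. Gm14303 had 853 ± 136 CPM (SD, n = 4) in sham and Rps29 6.83 ± 1.78 CPM (SD, n = 4). Rps16, a small subunit protein whose tail reaches the transfer RNA, had 11.7 CPM in sham and Rps16-ps2, identical over its coding sequence, 453 CPM. Rpl5, which carries the 5S ribosomal RNA, had 16.5 CPM and Gm15500, identical over its coding sequence, 397 CPM. For Rps25 and Rps25-ps1, which differ, the sham means were 228 and 273 CPM. Rpl32 and Rplp1, whose pseudogene rows took 1.2% and 0.6% of the sum, stood among the highest members, and Rpl23a, with 98.5%, was the lowest. How the authors counted reads with several matches was not stated in the labels or headers, and the count on a single member's row is uncertain wherever such copies exist.

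**Figure D4:**
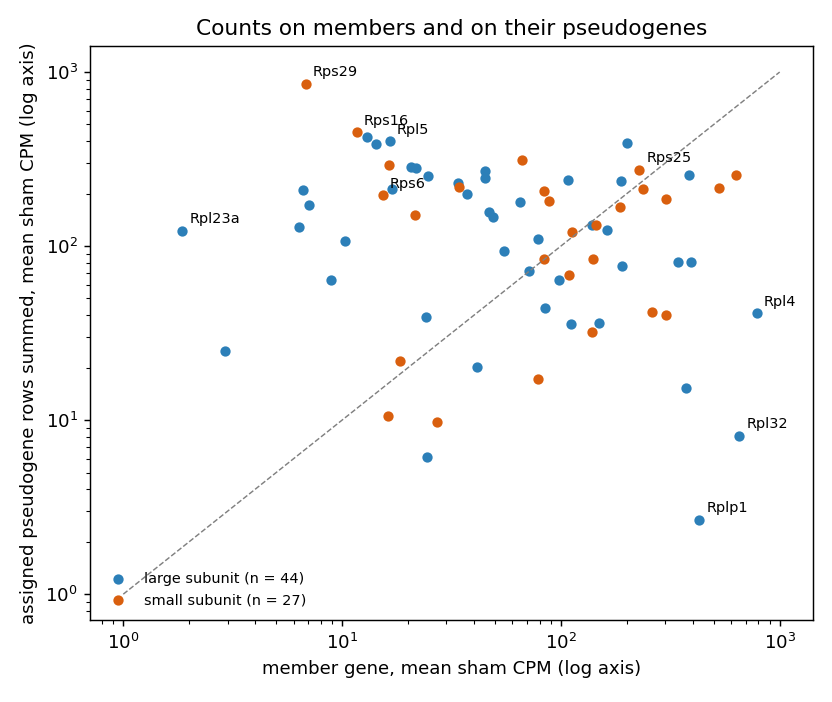
Mean sham CPM of each member (x, log axis) against the summed mean sham CPM of its assigned pseudogene rows (y, log axis), for the 44 large (blue) and 27 small (orange) subunit members with such rows; the dashed line marks equal values. Rps29, Rps16 and Rpl5 lie far above the line, and Rpl32, Rplp1 and Rpl4 far below.

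When the pseudogene rows were added to their members, an alternative chosen after seeing the data, the members became more alike. Per kb of main transcript the highest sham mean was then 77.7 times the lowest in place of 383 times, and the SD of log2 levels over members was 1.15 in place of 2.00. Rps29 had the highest summed level on that scale (2218 CPM per kb), and Rps23 the lowest (28.6 CPM per kb). The differences in pMCAO 3 also drew together, with an SD over members of 0.41 in place of 0.57, and the same held in pMCAO 1 (0.23 in place of 0.35) and pMCAO 2 (0.21 in place of 0.26).

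Of the 5 members above 0 in pMCAO 3, 3 were more than 1 log2 unit below 0 once the copies were added. Rpl24 went from 0.35 to -1.22, Rpl36a from 0.18 to -1.12 and Rpl31 from 0.01 to -1.11. Of the 76 summed members 75 were below 0 and 73 below all 4 sham libraries. Before summing, 29.0% of all genes were below all 4, and the median of all genes in pMCAO 3 was 0.02. Rpl15 stayed at 0.04 and Rpl10 at -0.08, the latter with summed values of 133 to 159.9 CPM in sham and 142, 147 and 138 CPM in pMCAO. In the 40 members with more pseudogene than own counts, the median in pMCAO 3 was -0.76 on the member's own row and -1.26 on its pseudogene rows, the pseudogene value being lower in 35 of 40. The summed medians of pMCAO 3 were -1.15 in the large and -1.28 in the small subunit, and those of pMCAO 1 and 2 stayed between -0.07 and -0.11. In the fit on summed counts again no member passed the adjusted threshold. In it 6 of 76 had an unadjusted p under 0.05, a smaller share than the 13.6% of all genes, and Rps21 had the smallest edgeR adjusted p, 0.214. Rps19, Rps21 and Rpsa were then the 3 members with all pMCAO libraries below all sham libraries. In the unsummed counts 6.58% of all genes showed this. The ratio of large to small subunit counts was 1.23 to 1.24 in sham, 1.26 and 1.26 in pMCAO 1 and 2, and 1.37 in pMCAO 3.

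**Figure D5:**
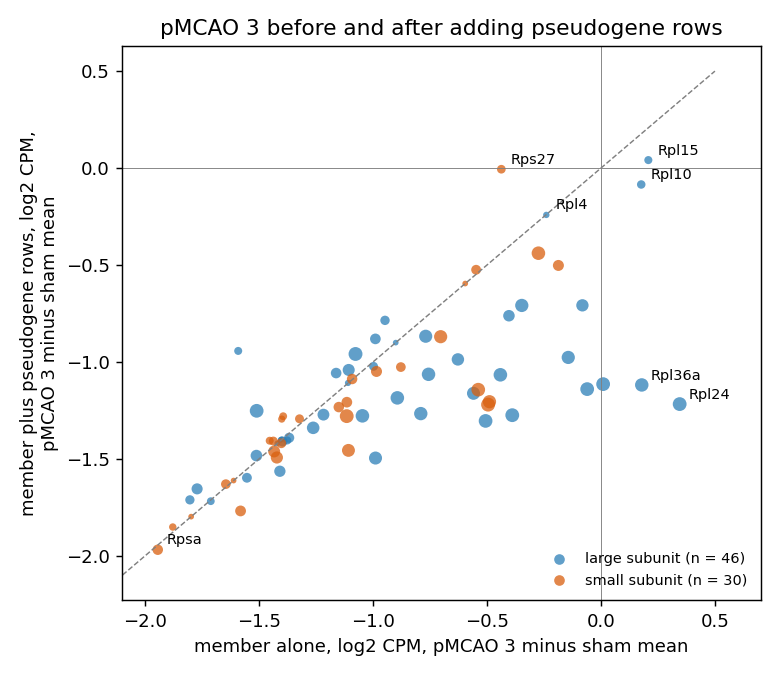
log2 CPM in pMCAO 3 minus the sham mean for each member alone (x) and with its pseudogene rows added (y); point area grows with the share of sham CPM on pseudogene rows, blue is the large and orange the small subunit, and the dashed line marks equal values. Rpl24 and Rpl36a lie right of 0 on the x axis and near -1.2 and -1.1 on the y axis.

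The spread of the members within a group differed between the groups. Among the 68 members between 10 and 1000 CPM the median SD of log2 CPM was 0.23 over the sham libraries, near the 0.26 of 9216 other genes at that level, and 0.64 over the pMCAO libraries against 0.31. Over all 7 libraries the median correlation of a member with the mean of the others was 0.91, with 50 of 76 members above 0.8, and 0.63 without pMCAO 3, with 12 above 0.8. No other gene set was measured in this way, so these correlations are not shown to be particular to the members. The widest sham spread was that of Rpl27 (5.13, 3.44, 1.61 and 1.48 CPM), Rpl31 (7.54 to 18.2 CPM) and Rpl17 in the large subunit. In the small subunit it was that of Rps10 (53.02, 102, 86.7 and 112 CPM), Rps27a and Rps27 (17.5 to 31.1 CPM). Sham 1 was the lowest sham library for Rpl31, Rpl17, Rps10 and Rps27 and the highest for Rpl27.

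The other genes of ribosome supply were taken from lists, with 0 genes past the adjusted threshold of edgeR's test in either direction in each of them. At an unadjusted p under 0.05 in that test, 6.47% of all genes were lower and 6.97% higher. These shares stand beside the counts of every list below. Of 10 measured ribosomal proteins outside the name rule, such as Rpl36al (-0.60, edgeR adjusted p = 0.308) and Rps4l (-0.99, edgeR adjusted p = 0.343), 2 were lower and 0 higher at an unadjusted p under 0.05. Their median was -0.43, and -1.20 in pMCAO 3. Of 20 other messages with a 5′ TOP element, 1 was lower (Eef1d, an elongation factor subunit, -0.79) and 1 higher (Eif4a2, an RNA helicase of initiation, 0.46), and the median was -0.08 overall and -0.42 in pMCAO 3. Of 28 translation initiation factors 2 were lower and 1 higher, among them Eif3c (-0.52) and Eif5 (0.50), with a median of -0.08.

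Of 48 ribosome biogenesis genes 5 were lower and 3 higher at an unadjusted p under 0.05, against 6.47% and 6.97% of all genes, with a median of -0.06. Tcof1, a nucleolar factor of ribosomal DNA transcription, had the smallest p (-1.15, edgeR adjusted p = 0.057), followed by Nolc1 (-1.08), its nucleolar partner. Of 16 genes of RNA polymerase I and its factors 1 was higher (Twistnb, 0.77) and 1 lower (Znrd1, -0.60), both subunits of the enzyme. None of 8 measured chaperones of ribosomal proteins passed an unadjusted p of 0.05 (Aamp -0.35, Grwd1 -0.73), and none of 7 small nucleolar RNA host genes did (Gas5 0.18, Snhg8 0.22). Of 15 genes of mTOR control 3 were higher and 1 lower, led by Ddit4 (1.66, edgeR adjusted p = 0.115) and Deptor (0.77, edgeR adjusted p = 0.144), both inhibitors of mTOR. Of 10 p53 targets linked to impaired ribosome assembly 1 was higher (Trp53inp1, 0.68) and 3 lower, with Bax at -0.78. Of 108 rows carrying a ribosomal protein pseudogene name 3 were lower and 0 higher, led by Rps15-ps2 (-0.82) and Rpsa-ps10 (-0.86), with a median of -0.31 overall and -1.14 in pMCAO 3.

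The 5 genes outside the members whose log2 CPM over the 7 libraries was most like the members' mean included Gm14303 (Pearson r = 0.996), Clic1 (0.994), Rps4x-ps (0.994) and Gnptg (0.994), among 11514 genes with a mean of at least 5 CPM. Of the 5, 3 are assigned pseudogene rows, Gm14303 and Rps4x-ps among them. Clic1, a chloride intracellular channel protein, had 260.1, 343, 246 and 303 CPM in sham and 231, 254 and 101 CPM in pMCAO. Gnptg, a subunit of a lysosomal enzyme-targeting transferase, had 39.4, 50.1, 37.4 and 44.5 CPM and 37.0, 40.7 and 21.3 CPM. All 5 genes had their lowest value in pMCAO 3.

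Among the members, 0 had an FDR under 0.05 in the authors' deposited table, against 14 of all genes. By the p-values of the authors' deposited table, 40 members (21 large, 19 small) were lower at p under 0.05 and 0 higher, against 9.69% of all genes lower. The median log2 fold change in the authors' deposited table was -0.80 for the large and -0.99 for the small subunit, more negative than the -0.33 and -0.32 fitted here from the counts, and 69 of 76 members were below 0. Rps15 had the smallest FDR in the authors' deposited table, 0.0955, at a log2 fold change of -1.68, followed by Rpl13a (-1.08, FDR 0.146) and Rpl18 (-1.29, FDR 0.146).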

How the data were processed

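The members and lists were chosen with earlier results of these data known. The authors deposited read counts per gene, for which the submitters' processing notes name STAR, featureCounts and limma and the build GRCm38 (mm10). Versions, strand setting and the handling of reads with several matches: not given in the sources used here. CPM values, also deposited, matched counts over the listed library total to within 0.0005. The log2 fold changes, mean log2 expression, p-values and FDR of the comparison table were also deposited by the authors. The table lists genes above 0.5 CPM in at least 4 libraries.

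Counts were tested with edgeR 4.0.16 in R 4.3.3 (quasi-likelihood F test, robust, TMM factors, low-count filter, passed by each of the 17209 genes and 76 members), two-sided, 4 sham against 3 pMCAO libraries, Benjamini-Hochberg threshold 0.05. CPM in the text are TMM-scaled, as mean ± SD. Standard errors are the log2 change over the root of F. On simulated counts of 16989 genes, 23% of 2-fold and 81% of 4-fold changes were recovered. The CPM values given for a count of 3 cover counting error only, whereas the standard errors include variation from library to library. DESeq2 1.42.0, limma 3.58.1 voom, other scalings and filters, thinning, a replicate block, GC and length offsets (mgcv 1.9.3) and leaving out each library were alternatives.

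Pseudogene rows were assigned with blastn (BLAST 2.17.0) to the main coding sequence of each member in GENCODE M21, at 90% identity over 50% of its length. Summed log2 differences used CPM + 0.05. Exon length and GC content came from that annotation, which held 99.5% of the gene IDs; start windows came from RefSeq on GRCm38.p6.

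Named members were the 5 with the smallest p, the 4 highest and 3 lowest per kb and the 3 with the largest sham SD in each subunit, and Rplp0, Rplp1, Rplp2, Rps27a, Rpsa, Rps4x, Rps6, Rpl22, Rpl38, Rpl10 and Rpl41 by role; of each list, the 2 with the smallest p. Rps29, Rps16, Rpl5, Rps25, Rps19, Rps23, Rps24, Rpl13a, Rpl15, Rpl24, Rpl35, Rpl36a and Rpl39, the list gene Rps27rt and the members without pseudogene rows were named after their values were seen. Some items that these rules select are not reported here.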

Additional observations from a re-analysis of the deposited data

Results flagged for a closer look

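Rpl18 had 71.8 CPM in Sham 1, the lowest of the sham libraries, far from the nearest, at 105 CPM, for a gap of 0.862 of the group's range. Chance sets apart a library of 4 in this way in about 1 in 20 genes.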

How the results depend on the processing

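No member was called higher under any alternative run. Leaving out each library in turn gave 0 to 1 members called lower (1 without pMCAO 2, Rps15), and every other alternative gave 0 at the threshold of 0.05. An adjusted threshold of 0.10 was applied to the main edgeR fit only and also gave 0. In DESeq2 the smallest adjusted p of a member was 0.0983, for Rps15. The median log2 change of the large subunit was -0.066 with GC and length offsets, -0.092 with these and the replicate block, and -0.47 to -0.10 over the left-out libraries, -0.10 without pMCAO 3. That of the small subunit was -0.21 with the offsets and -0.56 to -0.13 over the left-out libraries, -0.13 without pMCAO 3 and -0.56 without pMCAO 1. Without scaling factors the median of all genes was at -0.14 and that of the members at -0.46. No named member changed sign with a call on either side; 30 of 587 values of named members changed sign with no call, 7 of them without pMCAO 3. The replicate block gave 0 members called, 21 genes in place of 17, and medians of -0.32 and -0.42; same-numbered libraries correlated at -0.11, 0.01 and 0.18, and not every library correlated best with its own number, so the numbers were not taken as pairs.

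The share of counts, 1.17% in sham and 0.812% in pMCAO, was 0.581% and 0.400% over the 27 members without a pseudogene row of their name, 1.99% and 1.30% per kb of exon, and 2.37% and 1.65% with pseudogene rows added (chosen after seeing the data). The large to small ratio, 1.10 and 1.19, was in the same order 1.49 and 1.61, 1.53 and 1.61, and in sham 1.24; it was 1.08 in sham without the most abundant members, and 0.576 and 0.624 as a ratio of geometric means. At a biological coefficient of variation of 43.6%, the self-test recovered 23% of 2-fold and 81% of 4-fold changes, and smaller changes were not simulated. The cause of these movements was not tested.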
